A study of Homo sapiens with 6 samples.

Results

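Among the genes counted in WPMY-1 cells were 9 that act at the brakes of the cell cycle: the p53 targets *CDKN1A*, *MDM2*, *GADD45A*, *BTG2* and *ZMAT3*, the *GADD45A* relative *GADD45B*, and the cyclin-dependent kinase (CDK) inhibitor genes *CDKN1B*, *CDKN2A* and *CDKN2B*. They were chosen by name, with earlier results of these data known. All 9 were among the 15924 symbols of the count table and among the 13188 genes that had enough counts to be tested. WPMY-1 is an immortalized human prostate stromal cell line and served in the study as a model of the fibroblasts around prostate cancer. RNA was sequenced from control cells that received no added lactate (n = 3 libraries) and from cells treated with 24 mM lactate for 48 h (n = 3 libraries). Both groups were of the same cell line in serum-supplemented medium, so every library carried the SV40 large T antigen with which the line was immortalized, and the results describe 1 line and 1 time point. The methods of the study describe the lactate as lactic acid in a buffered, mildly acidic medium, and the pH of the control medium is not given in the sources used here, so lactate and acidity cannot be told apart.

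The transcription factor p53 is kept low by MDM2, a ubiquitin ligase that is itself a p53 target, and on DNA damage or other stress it switches on genes that stop the cycle, repair DNA or kill the cell. Much of the arrest runs through p21, the product of *CDKN1A*, which binds cyclin-CDK complexes, so that the retinoblastoma protein RB stays unphosphorylated and holds E2F factors in check. Proteins of the INK4 family, p16 from *CDKN2A* and p15 from *CDKN2B*, reach the same end by binding CDK4 and CDK6. Large T antigen binds both p53 and RB, and in cells that carry it p53 is held in a complex, p16 often accumulates, and the usual link from either protein to arrest is weakened. Several of these genes are also switched on without p53: *CDKN1A* and *GADD45B* by TGF-beta signalling, and *GADD45A* by the integrated stress response.

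The promoters of the genes whose levels are followed most closely here differ in the short elements that they hold. The upstream bases of 4 of them are given from RefSeq (GRCh38.p14, plus strand, 5′ to 3′), each ended before the first base that GENCODE release 29 places in an exon of the gene. Capitals mark matches on either strand to the p53 response element, the AP-1 site TGANTCA, the CCAAT box and the GC box GGGCGG. The p53 element was a pair of decamers RRRCWWGYYY without a spacer. Up to 3 mismatches were allowed, none of them at the C or the G of either decamer.
MDM2, second start, chr12:68808767-68809001: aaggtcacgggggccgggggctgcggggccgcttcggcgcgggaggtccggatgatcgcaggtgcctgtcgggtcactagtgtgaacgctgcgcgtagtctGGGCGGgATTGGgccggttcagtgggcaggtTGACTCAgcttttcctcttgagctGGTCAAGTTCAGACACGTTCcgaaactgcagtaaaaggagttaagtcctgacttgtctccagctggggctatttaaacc
CDKN1A, chr6:36678464-36678657: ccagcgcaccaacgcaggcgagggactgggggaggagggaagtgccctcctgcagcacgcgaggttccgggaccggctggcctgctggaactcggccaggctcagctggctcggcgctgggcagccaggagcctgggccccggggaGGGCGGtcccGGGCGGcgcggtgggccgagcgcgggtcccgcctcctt
GADD45B, chr19:2475877-2476121: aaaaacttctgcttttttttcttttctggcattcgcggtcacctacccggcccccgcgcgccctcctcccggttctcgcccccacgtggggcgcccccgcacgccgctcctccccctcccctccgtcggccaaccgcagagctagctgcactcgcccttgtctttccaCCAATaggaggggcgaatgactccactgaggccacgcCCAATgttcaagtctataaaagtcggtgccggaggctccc
BTG2, chr1:203305269-203305490: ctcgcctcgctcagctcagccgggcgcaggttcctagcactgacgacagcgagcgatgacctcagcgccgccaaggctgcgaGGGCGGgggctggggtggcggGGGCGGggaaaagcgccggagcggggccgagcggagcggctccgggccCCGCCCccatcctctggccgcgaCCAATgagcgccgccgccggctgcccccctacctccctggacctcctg
Only the *MDM2* stretch of these 4 held a match to the p53 element, beside a match to the AP-1 site, 1 CCAAT box and 1 GC box. *CDKN1A* held 2 GC boxes in the stretch shown, *GADD45B* 2 CCAAT boxes, and *BTG2* 3 GC boxes and 1 CCAAT box. The stretches differ in length, and the full 250 bases before the *CDKN1A* start held 4 GC boxes.

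RefSeq windows of 250 bases upstream of a start were at hand for 8 of the 9 members, 13 windows in all, and *GADD45A* had none. The p53 element was matched in windows of *MDM2* and *CDKN1B*, and their matches are shown with the central CNNG cores in capitals.
MDM2, chr12:68808923-68808942: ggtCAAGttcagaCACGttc
CDKN1B, chr12:12717137-12717156: aggCCAGccagagCAGGttt
The *MDM2* match lay 94 bases before a RefSeq start and differed from the consensus at 2 bases. The *CDKN1B* match lay 231 bases before a RefSeq start and differed at 3. Both matches lay inside the annotated loci of their genes, which begin farther upstream. Over all 35116 promoter windows of this length, 0.914% held a match with up to 3 mismatches and 0.242% with up to 2. The AP-1 site was in 6.57% of windows, the CCAAT box in 32% and the GC box in 42.6%. The elements through which p53 is known to act on *CDKN1A* lie farther upstream than this window, so the lack of a match there says only that these letters are not within it.

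Library totals ran from 20238653 to 46505372 counts, and the deepest was control replicate 1. The stromal markers were present throughout (summed level of 7 genes, 6832 to 7845 CPM in control and 6391 to 6755 CPM in lactate, with 1 of the 7, *S100A6*, having fallen, where CPM is a gene's count scaled to the size of its library), while epithelial markers (3 of 4 listed were in the table, and *KRT5* was at 0 in all lactate libraries), endothelial markers and leukocyte markers each summed to under 2 CPM in every library. Smooth muscle markers were higher in lactate, from 379 to 573 CPM in control and from 842 to 1217 in lactate (2 of 4 rose), and the part of this in the results was not tested. In bulk RNA, fewer cells of a type and less RNA per cell cannot be told apart. The libraries also differed in how the deviation of a gene from its mean followed its GC content. The rank correlation across genes was 0.372, -0.587 and -0.711 in control replicates 1, 2 and 3. In lactate replicates 1, 2 and 3 it was 0.618, 0.00112 and 0.261. With transcript length the values were -0.252, 0.158 and 0.327 in control and -0.449, 0.253 and 0.181 in lactate. Replicate 1 thus leaned most toward GC-rich and shorter transcripts in each group. The GC trend also ran partly with treatment, since replicates 2 and 3 lay higher in lactate than in control. Trend and treatment therefore cannot be fully told apart. Where a member moves with this trend its values are also given after correction, that is, with a smooth curve on GC content and transcript length taken out of each library. Replicate numbers only name libraries and pair nothing.

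Lactate-treated cells had more RNA of 4 members. *CDKN1A*, *GADD45A*, *GADD45B* and *BTG2* rose by 1.60 to 1.78-fold, 0 of the 9 fell, and *MDM2*, *ZMAT3*, *CDKN2A*, *CDKN1B* and *CDKN2B* did not pass the test (edgeR quasi-likelihood F test, two-sided, adjusted over 13188 genes). Over all tested genes 9.43% passed, 5.29% upward and 4.14% downward, and the median log2 fold change was -0.02, against 0.11 over the members. An unadjusted p under 0.05 was reached by 5 members, the 5th being *CDKN2B* in the downward direction, and by 27.8% of all tested genes. DESeq2 called 5 members, the same 4 upward and *CDKN2B* downward, where it called 17.0% of all tested genes. The 4 calls were lost together when any of control replicates 2 and 3 and lactate replicates 2 and 3 was left out: then 0 members passed in edgeR, 5 had an unadjusted p under 0.05 beside 17.6% to 25.6% of all genes, and the share of all genes called was 1.28%, 2.69%, 3.82% and 1.56% in that order. Without control replicate 1, 5 members passed, with 23.1% of all genes called, and without lactate replicate 1, 3 members passed, with 5.31% called.

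**Figure D1:**
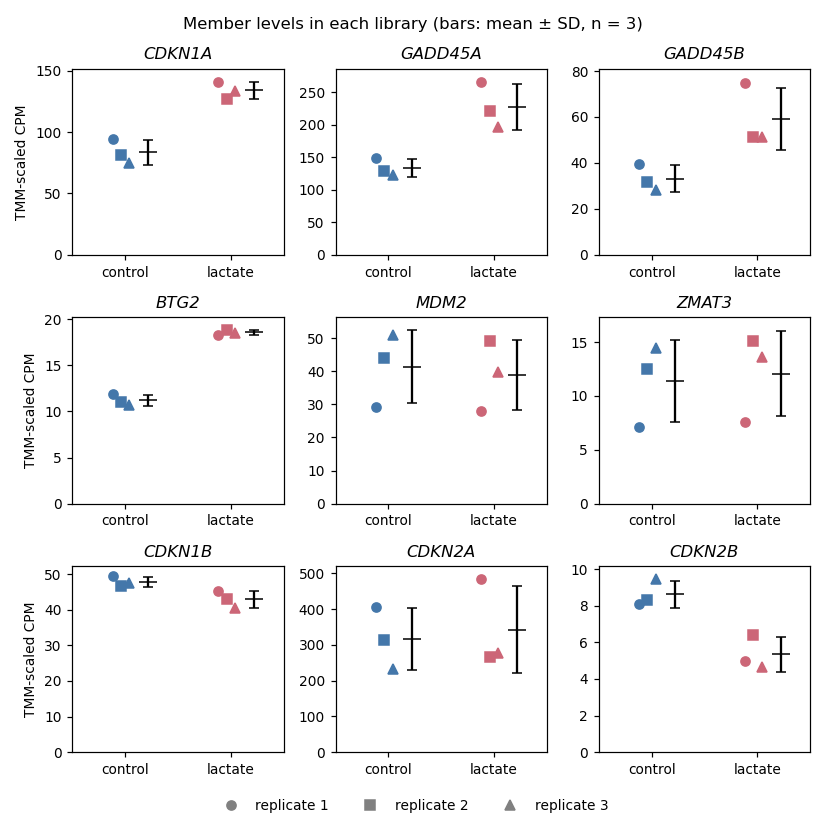
Level of each of the 9 members (CPM on a linear axis that starts at 0) in the 3 control and the 3 lactate libraries, with a point for each library and bars for the mean ± SD (n = 3). The lactate libraries lie above all control libraries for CDKN1A, GADD45A, GADD45B and BTG2, below them for CDKN1B and CDKN2B, and among them for MDM2, CDKN2A and ZMAT3.

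*CDKN1A* (chr6:36676460-36687339, plus strand, GRCh38) encodes p21, the inhibitor through which p53 stops cells before DNA replication. Its level was 94.7, 80.9 and 75.2 CPM in control replicates 1, 2 and 3 and 141, 127 and 134 CPM in lactate replicates 1, 2 and 3. All lactate libraries lay above all control libraries. The mean went from 83.6 ± 10.0 (SD, n = 3) to 134 ± 7.02 CPM (SD, n = 3), a 1.60-fold rise with a 95% interval of 1.28 to 2.00-fold and an edgeR adjusted p of 0.0239. After correction the level was 84.1, 93.1 and 96.0 CPM in control and 107, 131 and 131 CPM in lactate, and the log2 fold change went from 0.68 to 0.43 (edgeR adjusted p = 0.0191), so the smaller estimate kept the call. An RNA of the opposite strand, DINOL, overlaps its exons in the annotation and was not analysed here.

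*GADD45A* (chr1:67685061-67688338, plus strand) encodes a small stress protein that binds PCNA and p21 and takes part in growth arrest and DNA repair. It measured 149, 129 and 122 CPM in the control libraries and 265, 221 and 196 CPM in the lactate libraries. The lowest lactate library stood above the highest control library. Its mean rose from 134 ± 13.7 to 227 ± 35.2 CPM (SD, n = 3 each), or 0.77 on the log2 scale (SE 0.16, edgeR adjusted p = 0.0222). After correction the level was 134, 140 and 142 CPM in control and 212, 235 and 204 CPM in lactate. The corrected log2 fold change was 0.65 (edgeR adjusted p = 0.00117).

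Its relative *GADD45B* (chr19:2476122-2478259, plus strand) belongs to the same family and is known to respond to TGF-beta and NF-kappaB. Control libraries held 39.6, 31.6 and 28.3 CPM and lactate libraries 74.8, 51.5 and 51.3 CPM. Here too the groups did not overlap, and replicate 1 was the highest library of either group. The log2 fold change was 0.83 (SE 0.20, edgeR adjusted p = 0.0385), the largest among the members, and 0.54 after correction (adjusted p = 0.00323). The ratio of *GADD45A* to *GADD45B* was 3.75, 4.09 and 4.32 in control and 3.54, 4.29 and 3.82 in lactate, so the pair kept overlapping ratios (exact two-sided permutation test, p = 0.6, n = 3 each, 4 ratios compared, smallest p possible 0.1).

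*BTG2* (chr1:203305491-203309602, plus strand) encodes an antiproliferative protein that recruits the CCR4-NOT deadenylase to RNA. Its levels were the most even of the members that rose: 11.9, 11.1 and 10.7 CPM in control and 18.4, 18.9 and 18.5 CPM in lactate. The coefficient of variation was 5.48% in control and 1.41% in lactate. The mean rose from 11.2 ± 0.615 to 18.6 ± 0.261 CPM (SD, n = 3 each), or 0.73 on the log2 scale (SE 0.16, edgeR adjusted p = 0.0276), and its counts of 232 to 519 a library were the lowest of the 4.

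Each of these 4 calls depended on having all of replicates 2 and 3. For *CDKN1A* the edgeR adjusted p was 0.143 without control replicate 2, 0.105 without control replicate 3, 0.0614 without lactate replicate 2 and 0.122 without lactate replicate 3. For *GADD45A* the corresponding values were 0.132, 0.0881, 0.0568 and 0.0669. For *BTG2* they were 0.154, 0.116, 0.0850 and 0.127. In each case the direction stayed and the log2 fold change of these 3 genes remained between 0.61 and 0.86. *GADD45B* had 0.173, 0.124, 0.0582 and 0.105, and it was the only one of the 4 to miss the threshold without lactate replicate 1 as well (0.0813). When replicate 1 of both groups was set aside, an alternative added after seeing the data, the 4 remaining libraries gave log2 fold changes of 0.74 for *CDKN1A*, 0.73 for *GADD45A*, 0.78 for *GADD45B* and 0.78 for *BTG2*, all past the threshold, where 47.4% of all tested genes were called. In these 4 libraries the GC correlations lay apart by group, so the GC trend and treatment cannot be told apart there. After correction the values were 0.466, 0.641, 0.489 and 0.675 in the same order. All 4 genes stayed past the threshold, with 42.5% of all tested genes called.

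**Figure D2:**
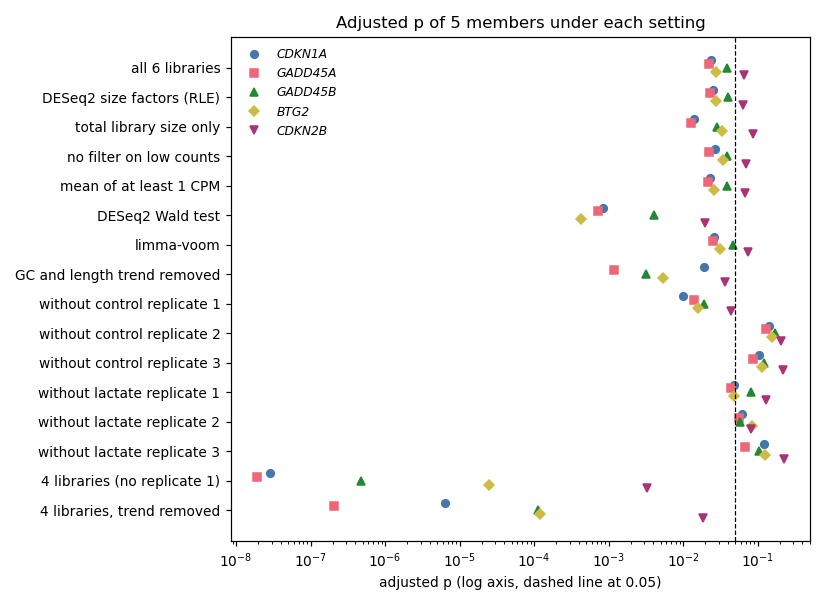
Adjusted p (log axis) of the 4 members that rose and of CDKN2B in all 6 libraries and under each of the 15 alternatives, with the threshold of 0.05 as a dashed line. Symbols of the 4 risers stand right of the line when replicate 2 or 3 of either group is left out, and far left of it when replicate 1 of both groups is left out.

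*MDM2* and *ZMAT3*, both p53 targets, did not pass the test. *MDM2* (chr12:68808176-68850686, plus strand), the ligase that marks p53 for degradation, had 29.3, 44.1 and 51.0 CPM in control and 27.9, 49.1 and 39.8 CPM in lactate. Replicate 1 was the lowest library in both groups, and the groups overlapped. The log2 fold change was -0.09 with a 95% interval of -0.67 to 0.49 (edgeR adjusted p = 0.847). After correction the levels were 33.4, 38.8 and 37.8 CPM in control and 42.6, 45.3 and 38.1 CPM in lactate, and the estimate turned to 0.20 (adjusted p = 0.212). Its exons overlap those of the carboxypeptidase M gene on the opposite strand, which had 1523 counts over the 6 libraries, and 1.63% of its 76-base stretches also occur in other genes.

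*ZMAT3* (chr3:179017223-179072279, minus strand) encodes a zinc finger protein that binds RNA and affects splicing. It measured 7.11, 12.5 and 14.5 CPM in control and 7.57, 15.1 and 13.6 CPM in lactate. Again replicate 1 was the lowest in each group and the groups overlapped. The log2 fold change was 0.10 with an interval of -0.63 to 0.82 (edgeR adjusted p = 0.865). The lactate libraries lay above the control libraries after correction (8.30, 10.4 and 10.4 CPM against 11.4, 14.3 and 13.7 CPM), and the log2 fold change of 0.44 had an adjusted p of 0.0620.

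The ratio of *CDKN1A* to *MDM2* within a library, which was not corrected for GC content or length, was 3.23, 1.83 and 1.48 in control and 5.06, 2.58 and 3.36 in lactate. The groups overlapped in this ratio (log2 difference 0.78, exact two-sided permutation test, p = 0.2, adjusted over 4 ratios 0.267). With 3 libraries against 3 the smallest p possible is 0.1, so this test could not establish a difference in response between *CDKN1A* and *MDM2*. After correction the log2 fold changes were 0.43 for *CDKN1A* and 0.20 for *MDM2*.

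**Figure D3:**
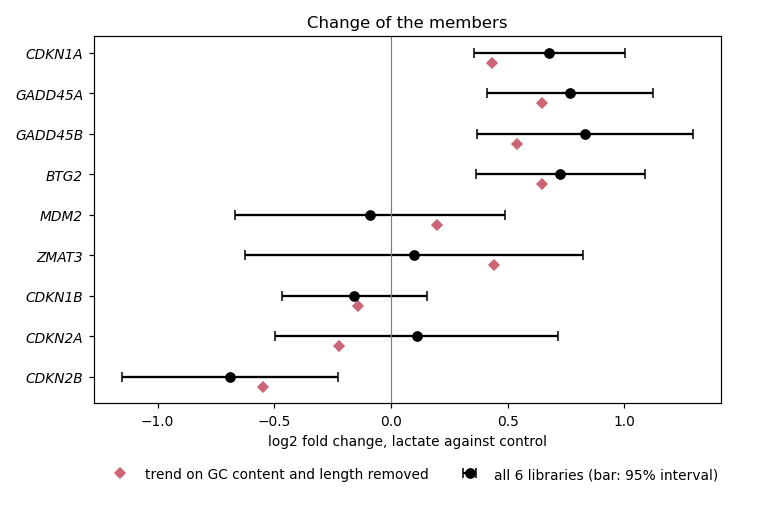
Log2 fold change of each member, lactate against control, for the 6 libraries as counted (black circles, bars for the 95% interval) and after correction for GC content and length (red diamonds, no interval drawn). The 4 members that rose stay above 0 in both, CDKN2B stays below 0, and MDM2 and CDKN2A change sign between the estimates.

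None of the genes for CDK inhibitors other than p21 passed the test. *CDKN1B* (chr12:12715058-12722371, plus strand) encodes p27, which is controlled largely through protein turnover. It had 49.4, 46.6 and 47.6 CPM in control and 45.3, 43.1 and 40.5 CPM in lactate. All lactate libraries lay just below all control libraries, with a log2 fold change of -0.16 (95% interval -0.47 to 0.15, edgeR adjusted p = 0.480). Among all tested genes the groups did not overlap in 32.6%, 17.3% with lactate above and 15.3% with lactate below, against 4 members above and 2 below. The ratio of *CDKN1A* to *CDKN1B* was 1.91, 1.74 and 1.58 in control and 3.11, 2.95 and 3.30 in lactate. Every lactate library was above every control library in this ratio, with the smallest p that 3 against 3 allows (exact two-sided permutation test, p = 0.1, adjusted over 4 ratios 0.267). This outcome was fixed by the levels already given, since *CDKN1A* separated upward and *CDKN1B* downward. The test of the ratio therefore adds nothing to them.

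*CDKN2B* and *CDKN2A* are neighbours in the INK4 locus on chromosome 9, minus strand. *CDKN2B* (chr9:22002903-22009363) encodes p15, a known target of TGF-beta. Its level was 8.10, 8.33 and 9.45 CPM in control and 5.00, 6.41 and 4.63 CPM in lactate. The groups did not overlap, with lactate below, and the mean was 8.63 ± 0.723 in control and 5.34 ± 0.942 CPM in lactate (SD, n = 3 each). The log2 fold change was -0.69 (SE 0.20, 95% interval -1.15 to -0.23), and at an edgeR adjusted p of 0.0666 it just missed the threshold. DESeq2 placed it past the threshold (adjusted p = 0.0198), as did edgeR after correction (log2 fold change -0.55, adjusted p = 0.0367) and without control replicate 1 (adjusted p = 0.0436). Its counts, 95 to 353 a library, were among the lowest of the members.

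*CDKN2A* (chr9:21967753-21995301) makes p16 from one start and p14ARF, the inhibitor of MDM2, from another, and a count per gene cannot separate them. It was the most abundant member, at 406, 314 and 232 CPM in control and 484, 267 and 278 CPM in lactate. Replicate 1 was the highest library of both groups, and the groups overlapped. The log2 fold change was 0.11 (95% interval -0.50 to 0.72, edgeR adjusted p = 0.815). Correction gave 357, 363 and 317 CPM in control and 326, 282 and 281 CPM in lactate and turned the estimate to -0.22 (adjusted p = 0.119). The ratio of *CDKN2B* to *CDKN2A* was 0.0199, 0.0266 and 0.0407 in control and 0.0103, 0.0240 and 0.0167 in lactate, which overlapped (exact two-sided permutation test, p = 0.2). The antisense gene *CDKN2B-AS1*, which shares exon sequence with *CDKN2A* on the other strand, had 326 counts over the 6 libraries, and *CDKN2A* and *CDKN2B* share 5 stretches of 76 bases.

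Per kilobase of transcript, which allows levels of different genes to be compared, *CDKN2A* stood highest in control at 247 ± 67.9 CPM per kilobase (SD, n = 3), followed by *GADD45A* at 89.2 ± 9.13 and *CDKN1A* at 36.9 ± 4.43. *GADD45B* (24.2 ± 4.24), *CDKN1B* (18.0 ± 0.539) and *MDM2* (16.4 ± 4.38) came next, and the ranges of *CDKN1B* and *MDM2* overlapped. *BTG2* (4.14 ± 0.227), *CDKN2B* (2.21 ± 0.185) and *ZMAT3* (1.21 ± 0.404) were the lowest. The order was the same in lactate, where *GADD45A* reached 152 ± 23.5 and *CDKN1A* 59.0 ± 3.10. With the longest annotated transcript in place of the principal one, *MDM2* fell from 16.4 to 3.28 in control, below *BTG2*, and *GADD45B* from 24.2 to 16.5, below *CDKN1B*. This order rests on reads from whole transcripts, as the labels describe. For a 3′ end kit, which the methods of the study describe, length would not enter, and by CPM alone *CDKN1B* (47.9) and *MDM2* (41.5) stood above *GADD45B* (33.2) in control.

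How far replicate 1 departed from the other libraries of its group followed GC content among the members, and transcript length as well. The longest transcripts were those of *MDM2* (12633 bases) and *ZMAT3* (9406 bases), and the shortest was that of *CDKN2A* (1283 bases). GC content and length cannot be told apart over these 9 genes. *ZMAT3*, at 39.5% GC, was lower in replicate 1 than in the mean of replicates 2 and 3 by 0.92 on the log2 scale in both groups, and *MDM2*, at 41.9%, by 0.70 in control and 0.67 in lactate. *CDKN2A*, at 61.4%, was higher by 0.57 in control and 0.83 in lactate, and *GADD45B*, at 59.6%, by 0.40 and 0.54. *BTG2* and *CDKN1B*, between these extremes, departed by at most 0.13 in either group. The members with the widest spread within groups were those at the ends of the range: the coefficient of variation was 33.5% in control and 32.8% in lactate for *ZMAT3*, 26.6% and 27.4% for *MDM2*, and 27.5% and 35.6% for *CDKN2A*. After correction 4 members rose and 1 fell, *CDKN2B* having been added, beside 10.3% of all tested genes up and 12.2% down. The correction did not test the part of GC content or length in any call.

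**Figure D4:**
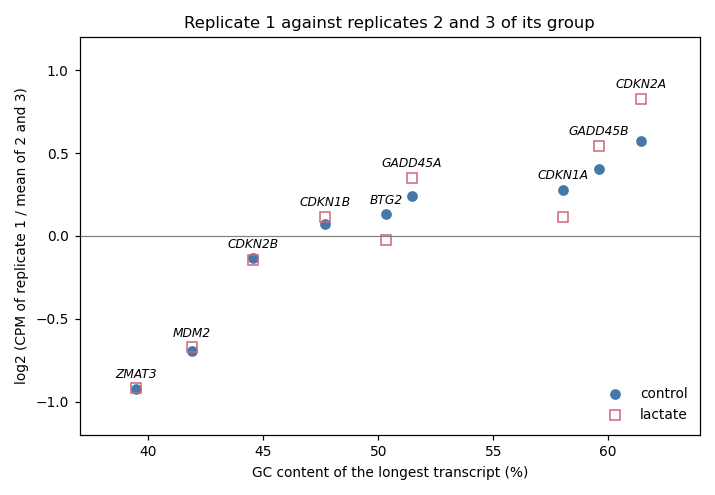
Log2 ratio of each member's level in replicate 1 to its mean in replicates 2 and 3 of the same group, against the GC content (%) of its longest transcript, for control (filled circles) and lactate (open squares). The points run from -0.92 for ZMAT3 to 0.83 for CDKN2A, and the 2 groups lie close together for most members. Transcript length, which is not drawn, differed along with GC content.

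Among 35 other p53 targets, 2 rose and 1 fell, with a median log2 fold change of 0.11, and 11 had an unadjusted p under 0.05, as had 27.8% of all tested genes. The shares called are near the background of 5.29% and 4.14%, and 18 estimates were positive and 17 negative. DESeq2 called 5 of the 35, beside 17.0% of all tested genes. After correction 4 rose and 3 fell, beside 10.3% of all tested genes up and 12.2% down. *GDF15*, a stress-induced cytokine, rose from 7.59, 6.33 and 3.78 CPM to 16.7, 11.8 and 10.6 CPM (log2 fold change 1.13, SE 0.29, edgeR adjusted p = 0.0432). *SESN2*, a sestrin that restrains mTORC1, rose from 54.9, 44.2 and 38.9 CPM to 89.0, 80.8 and 79.5 CPM (0.85, SE 0.17, adjusted p = 0.0186). *TIGAR*, listed as *C12orf5*, which encodes a fructose bisphosphatase that lowers glycolysis, fell from 20.4, 23.1 and 22.9 CPM to 15.6, 14.2 and 13.2 CPM (-0.63, SE 0.16, adjusted p = 0.0453). The groups did not overlap for any of these 3. All 3 missed the threshold without control replicate 2, with edgeR adjusted p of 0.154, 0.115 and 0.204 in the order given. Without lactate replicate 3 they were 0.103, 0.0832 and 0.187, and without control replicate 3 they were 0.112, 0.0715 and 0.154. Without lactate replicate 1 or 2, *GDF15* (0.0967 and 0.0697) and *TIGAR* (0.0599 and 0.124) did not pass. *TIGAR* also just missed the threshold in limma-voom (0.0513) and in edgeR with no filter on low counts (0.0503).

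**Figure D5:**
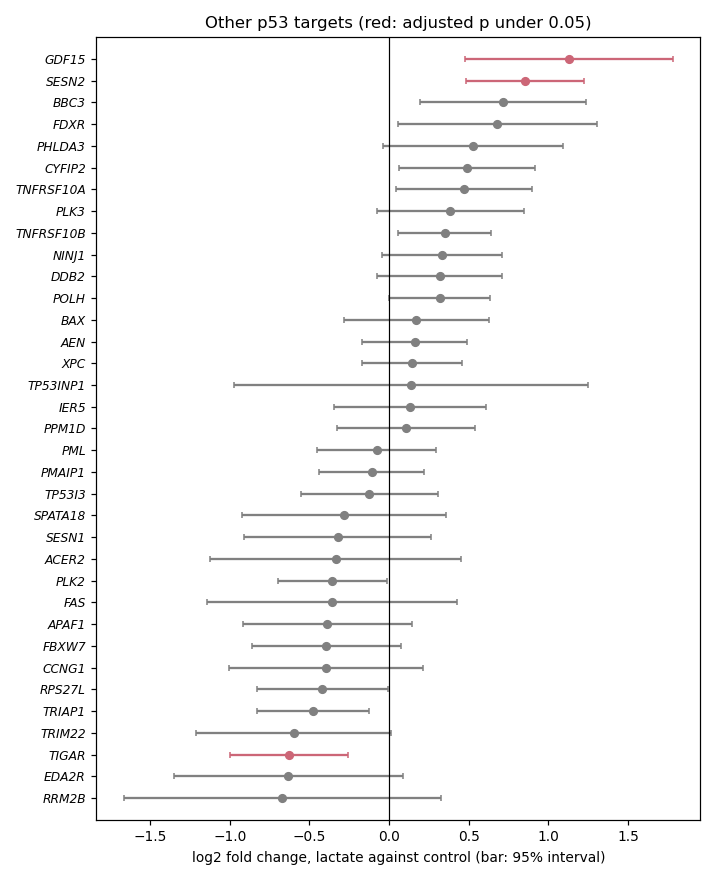
Log2 fold change of 35 other p53 targets, lactate against control, with 95% intervals, ordered by size (red: adjusted p under 0.05). Of these, GDF15 and SESN2 lie above 0 in red and TIGAR below it, and the remaining 32 run from -0.67 to values below that of SESN2.

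Relatives and partners of the members showed no call in edgeR. None of 3 other CDK inhibitors passed (0 at an unadjusted p under 0.05, 0 in DESeq2 and 0 in limma-voom): *CDKN2C*, the p18 gene, had a log2 fold change of -0.43 (95% interval -0.88 to 0.02, adjusted p = 0.194) and *CDKN2D*, the p19 gene, one of 0.33 (-0.22 to 0.88, adjusted p = 0.401). After correction *CDKN2C* passed downward (-0.68, edgeR adjusted p = 0.00136). None of 5 other GADD45, BTG and TOB genes passed (1 at an unadjusted p under 0.05, 0 in DESeq2 and in limma-voom), *BTG1* having 0.42 (adjusted p = 0.129) and *TOB2* -0.06 (adjusted p = 0.807). After correction these were 0.72 (adjusted p = 0.0661) and -0.26 (adjusted p = 0.0651), and *BTG1* passed without control replicate 1 (0.52, adjusted p = 0.0439). Of 11 tested genes for p53 regulators 0 passed (2 at an unadjusted p under 0.05, 0 in DESeq2 and in limma-voom), with a median of -0.23, and after correction 2 passed downward. *USP7*, which removes ubiquitin from MDM2 and p53, was at -0.29 (adjusted p = 0.349), and *HIPK2*, a kinase that phosphorylates p53, at -0.23 (adjusted p = 0.588).

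Downstream of the inhibitors, 0 of 18 tested G1 cyclin, CDK, RB and E2F genes passed in edgeR, 4 had an unadjusted p under 0.05, and 2 passed in DESeq2 and 0 in limma-voom. After correction 2 passed upward and 1 downward, beside 10.3% of all tested genes up and 12.2% down. The median was 0.06. *CCND1*, the gene of cyclin D1, which drives CDK4 and CDK6, had 591, 495 and 501 CPM in control and 667, 756 and 813 CPM in lactate. Its lactate libraries lay above all control libraries, and the log2 fold change of 0.49 (SE 0.14) had an edgeR adjusted p of 0.0610, while after correction the value was 0.40 (adjusted p = 0.0137). *CDK4*, the kinase that p15 and p16 bind, had a log2 fold change of -0.06 (95% interval -0.51 to 0.40, adjusted p = 0.876).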

How the data were processed

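RNA-seq libraries were grouped by the treatment label (control and lactate, n = 3 each), and the methods of the study call samples biological replicates. The deposited values are raw counts of reads per gene symbol, made by the authors with STAR, DESeq2 and hg38 named in the processing notes of the submitters (no versions are given in the sources used here). The labels describe poly(A)-selected, directional libraries and single-end reads of 76 bases, while the library section of the study describes a 3′ kit, and the labels were followed. Whether counting used strand is not given, so overlapping genes are uncertain. The table had 0 columns of other samples.

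Differences were tested in R 4.3.3 with edgeR 4.0.16 (TMM, filterByExpr, quasi-likelihood F test, Benjamini-Hochberg over 13188 genes, threshold 0.05; common biological coefficient of variation 20.2%). Levels are CPM with TMM scaling, and intervals are 95%. DESeq2 1.42.0, limma 3.58.1 (voom), other scalings and filters, leaving out libraries, and a per-library spline trend on GC content and length (5 degrees of freedom each) were alternatives. Symbols were matched to GENCODE release 29 (95.8%). The fits were tested on simulated data. Named genes were all members and, per further list, up to 4 called genes by size or, with none, the 2 most abundant. Members and lists were chosen with earlier results of these data known, and some genes of the lists are not reported here.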

Additional observations from a re-analysis of the deposited data

How the results depend on the processing

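No paired analysis was possible because the labels number no replicates and pair no libraries. The number of genes that changed, 1244, was 2247 in DESeq2, 2962 after correction for GC content and length, 172 to 3092 on leaving out 1 library, and, in alternatives chosen after seeing the data, 6295 without replicate 1 of both groups and 5641 when these were also corrected. Of the 9 members, 4 changed, against 0 to 5 on leaving out 1 library and 7 in the 4 corrected libraries. Of the genes in the further lists (cell type markers not counted), 3 changed, against 8 in DESeq2, 15 after correction, 0 to 19 on leaving out 1 library, 47 in the 4 libraries and 36 there after correction. Direction turned for 9 named genes, none of them called with 6 libraries, in log2 fold changes. After correction these were *MDM2* 0.196, *CDKN2A* -0.221 and *CDKN2D* -0.001. In the 4 libraries they were *CDKN2A* -0.004, *TOB2* 0.068 and *MCM2* 0.089, and there after correction *MDM2* 0.126, *CDKN2A* -0.277, *CDKN2D* -0.069 and *EED* 0.049. On leaving out 1 library the values ran from -0.291 to 0.102 for *MDM2*, -0.222 to 0.327 for *CDKN2A*, -0.155 to 0.343 for *ZMAT3*, -0.119 to 0.018 for *TOB2*, -0.374 to 0.023 for *HIPK2*, -0.286 to 0.082 for *CDK4* and -0.189 to 0.143 for *MCM2*. The cause was not tested. The adjusted p over the 15 alternatives ran from 2.827e-08 to 0.1435 for *CDKN1A* (past the threshold in 11), from 1.939e-08 to 0.1317 for *GADD45A* (11), from 4.785e-07 to 0.1726 for *GADD45B* (10), from 2.488e-05 to 0.1544 for *BTG2* (11) and from 0.003318 to 0.2254 for *CDKN2B* (5). Over the named genes 279 values kept direction and call, 32 lost the call, 27 gained it and 22 turned. With 3 libraries a group and 95 to 353 counts each, a change in *CDKN2B* could be bounded only to the interval given.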

Other observations

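Proliferation markers and the repressors of the INK4 locus belong to no comparison above. All 8 proliferation markers had negative log2 fold changes, from -0.74 to -0.07 with a median of -0.39, beside -0.02 over all tested genes, but 0 passed in edgeR (2 at an unadjusted p under 0.05, 0 in DESeq2 and in limma-voom). Of all 13188 tested genes, 6783 had negative values. The lactate libraries lay below all control libraries for 2 of the 8 markers, beside 15.3% of all tested genes. *CCNB1*, the gene of cyclin B1, which drives entry into mitosis, had 536, 438 and 451 CPM in control and 401, 352 and 323 CPM in lactate, and the groups did not overlap (-0.41 on the log2 scale, SE 0.15, edgeR adjusted p = 0.113). *MCM2*, a subunit of the replicative helicase, had 680, 482 and 442 CPM in control and 548, 469 and 516 CPM in lactate, which overlapped (-0.07, edgeR adjusted p = 0.835). After correction for GC content and length, 2 of the 8 markers passed downward, *MCM2* (-0.31, edgeR adjusted p = 0.0267) among them, the median was -0.17, and *CCNB1* was at -0.20 (adjusted p = 0.320).

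Of 8 Polycomb genes that repress the INK4 locus, 0 passed in edgeR (3 at an unadjusted p under 0.05, 1 in DESeq2 and 0 in limma-voom), and the median was -0.28. *EZH2*, the methyltransferase of the Polycomb repressive complex, had 51.6, 59.4 and 64.3 CPM in control and 41.6, 47.9 and 44.8 CPM in lactate (log2 fold change -0.38, edgeR adjusted p = 0.135). *EED*, the subunit that binds its methyl mark, had 56.8, 53.6 and 52.7 CPM in control and 46.2, 40.8 and 36.7 CPM in lactate (-0.40, edgeR adjusted p = 0.120). The groups did not overlap for either gene, but after correction the values were -0.15 for *EZH2* (adjusted p = 0.212) and -0.06 for *EED* (adjusted p = 0.842). *CBX7*, named here after its values were seen, went the other way with no overlap, at 0.57 before correction (edgeR adjusted p = 0.0739). After correction 0 of the 8 genes passed upward and 0 downward.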
